A study of Arabidopsis thaliana with 6 samples.

Results

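The VAL proteins and the chromatin-modifying proteins known to act with them were followed at the level of their own transcripts. The genes were chosen by name, as the VAL genes and their named partners, with earlier results of these data known, and the rule uses no measured value: *VAL1* (AT2G30470), *VAL2* (AT4G32010) and *VAL3* (AT4G21550), *SAP18* (AT2G45640), the histone deacetylase genes *HDA19* (AT4G38130) and *HDA6* (AT5G63110), and the PRC1 genes *BMI1A* (AT2G30580), *BMI1B* (AT1G06770), *RING1A* (AT5G44280) and *RING1B* (AT1G03770). All 10 are among the 24292 genes of the deposited count table, and all 10 were among the 21140 genes that passed the filter on low counts. RNA-seq had been carried out on polyA RNA from dissected shoot apices (0.5 g) of Arabidopsis plants aged 6 weeks, grown on soil in short days (8 h light and 16 h dark) at 22 °C. There were 6 libraries in 3 groups, with replicates 1 and 2 each for Col-0 (WT), for *val1* (the *val1-2* T-DNA line) and for *val2* (the *val2-1* T-DNA line). Both mutants are in the Col-0 background, and each was represented by 1 insertion line. An apex sample pools meristem, leaf primordia and stem. The labels do not say whether the replicates came from separate growths, so p-values measure only the spread between these libraries.

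VAL proteins are transcriptional repressors with a plant B3 DNA-binding domain, which recognises the RY motif (CATGCA). They are known for silencing the seed maturation program after germination and for nucleating Polycomb silencing at the floral repressor gene *FLC*. At their targets they recruit PRC1, whose BMI1 and RING1 proteins are RING-finger ubiquitin ligases that monoubiquitinate histone H2A, and they associate with histone deacetylase complexes, to which SAP18 serves as an adaptor and in which HDA19 and HDA6 remove acetyl groups from histones.

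Because RY motifs are the binding sites of the B3 domain, the genes of the set were first read for the 6-base word CATGCA and its reverse complement TGCATG, which can overlap each other, from 1000 bases before to 500 bases after each annotated gene start (TAIR10.1 assembly, whose chromosomes are those of TAIR10). At least 1 word was present in 38.5% of the 24185 windows of the count table's genes that could be read, so a single word is common. *VAL1* had 9 words, a number reached by 0.0207% of windows, and they lay in 6 separate stretches, which 12 of the 24185 windows reached. *BMI1A* and *BMI1B* had 1 word each, and the windows of the other 7 genes had none. The stretches are printed because they hold the letters known to be recognised by the B3 domain, 5′ to 3′ on the strand of the gene, with the RY letters in capitals. A word is a match of letters and no measure of binding.
VAL1 stretch 1: gacagaaaatcaCATGCAtatataaaatcg
VAL1 stretch 2: caaagtcttttgTGCATGtgtgtgttagtg
VAL1 stretch 3: gtgttagtgtCATGCATGCActctatatat
VAL1 stretch 4: ttcaagtgtcgTGCATGCAttttatgcgtt
VAL1 stretch 5: gtttcgttcactTGCATGctctctccctct
VAL1 stretch 6: gaccaacgtcgaTGCATGttcatgactagt
BMI1A: gtttttcttctaCATGCAgttttggggata
BMI1B: cgttttcgtccaCATGCAgttttggggata

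*VAL1* lies on the minus strand at chr2:12980428-12985277. Its first printed stretch is at chr2:12986222-12986251, with the word starting 962 bases before the gene start. The second is at chr2:12985510-12985539 and the third at chr2:12985489-12985518, 250 and 231 bases before the start. In the third stretch 3 words overlap in a run of 10 bases. Stretches 4 to 6 lie in annotated 5′ UTR exons at chr2:12985122-12985151, chr2:12985095-12985124 and chr2:12984843-12984872, starting 137, 165 and 417 bases after the gene start. *BMI1A* lies on the plus strand of the same chromosome at chr2:13025911-13030661, with its printed stretch at chr2:13026343-13026372, and *BMI1B* on the minus strand of chromosome 1 at chr1:2078880-2082097, with its printed stretch at chr1:2081748-2081777. Both words are in a 5′ UTR exon, 444 bases after the gene start and 89 bases before the start codon in *BMI1A*, and 332 and 58 bases in *BMI1B*, counted on the genome. The *BMI1A* and *BMI1B* windows share a run of 20 bases that holds the word, aCATGCAgttttggggatag, and this run occurs 2 times in the genome, once in each gene.

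**Figure D1:**
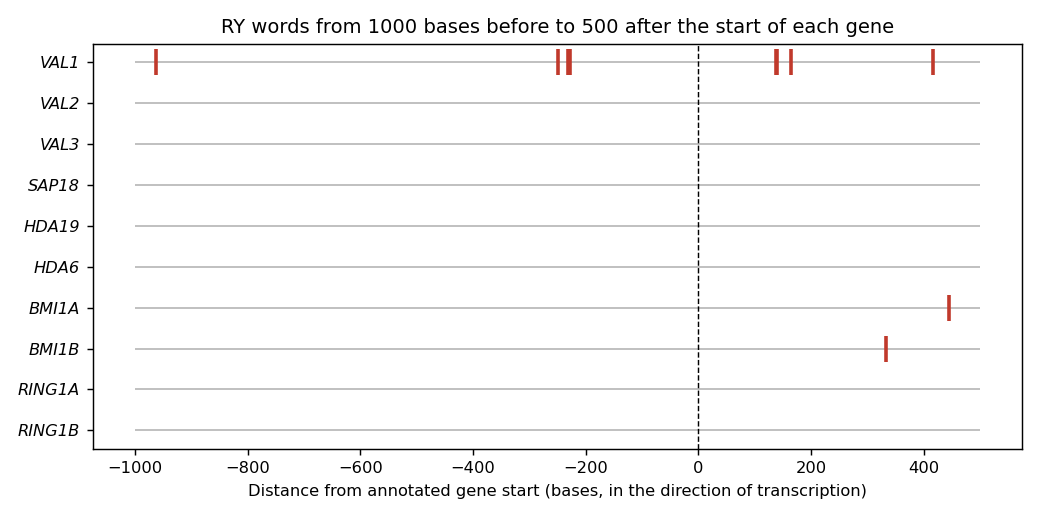
Positions of the RY words (CATGCA or TGCATG, red ticks) in the window of each gene, in bases from the annotated gene start (dashed line), in the direction of transcription. *VAL1* has 9 words on both sides of its start, *BMI1A* and *BMI1B* have 1 each after the start, and the other 7 windows have none.

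The genes targeted in the mutant lines were measured first. *VAL1* had 40.3 and 55.4 CPM (counts scaled to a common library size with TMM factors) in the WT libraries, 12.5 and 15.7 in *val1*, and 32.7 and 39.0 in the libraries labelled *val2*. Both *val1* libraries lay below all others, and the fall against WT was 3.39-fold (log2 fold change -1.76 ± 0.17 SE, edgeR quasi-likelihood test, Benjamini-Hochberg adjusted p = 5.16e-05). *VAL2* had 39.9 and 40.9 CPM in the WT libraries, 36.1 and 39.1 in *val1*, and 149.8 and 163.9 in the libraries labelled *val2*. *VAL2* was thus 3.88-fold higher, not lower, in the libraries that carry the *val2-1* label (log2 fold change 1.96 ± 0.081, adjusted p = 6.15e-06 by the same test). This goes against a simple loss of transcript, and every direction given for these libraries depends on the label.

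The primers used to genotype the lines give the intervals in which the insertions were tested for, and they are printed for what a gene-level count can and cannot see. They were matched to the reference without mismatch.
val1-2 left primer: gttcttccaaaagcctgtg
val1-2 right primer: gcaccaatggttcgagttct
val2-1 left primer: tcacagaaggagcgtattgagt
val2-1 right primer: accaagaccaaggaagcatc
VAL1 qPCR forward primer: ggacatggaactggctgagt
VAL1 qPCR reverse primer: tcttctttctccaccgcaac
The *val1-2* pair spans 792 bases (chr2:12982471-12983262) and both primers lie in coding exons of *VAL1*. The *val2-1* pair spans 879 bases (chr4:15480986-15481864), from a 5′ UTR exon of *VAL2* to an intron, and this interval holds the annotated start codon. *VAL2* itself lies on the plus strand at chr4:15479379-15485354. The *VAL1* qPCR pair (chr2:12981031-12981156, 126 bases, coding exon) lies downstream of the *val1-2* interval in the direction of transcription. A gene-level count sums reads on either side of an insertion, so the counts used here do not tell which stretch of *VAL1* or *VAL2* the reads came from, nor whether the transcripts encode a full protein.

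In *val1*, the transcripts of both BMI1 genes were higher than in WT, whereas those of both RING1 genes, *SAP18*, both deacetylase genes and the remaining VAL genes did not pass the test. Of the 10 genes, 3 had an adjusted p below 0.05 (*BMI1A* and *BMI1B* higher, *VAL1* lower), against 45.7% of all genes tested in this comparison (23.6% higher and 22.1% lower). A call with a change of at least 2-fold was seen in the same 3 of the 10 genes and in 15.7% of all genes. The *val1* and WT libraries did not overlap for 6 of the 10 genes, against 74.3% of all genes. In bulk apices, fewer cells of a type and less RNA per cell cannot be told apart.

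The WT libraries gave 11.1 and 10.9 CPM for *BMI1A*, which encodes a RING-finger subunit of PRC1, and the *val1* libraries 35.5 and 34.7. The replicates were close to each other and the groups were far apart. The rise was 3.20-fold (log2 fold change 1.68 ± 0.10, 95% interval 1.44 to 1.91, adjusted p = 3.87e-06, edgeR). *BMI1B*, its closest relative in the set, had 10.7 and 9.54 CPM in the WT libraries and 22.8 and 22.2 in *val1*, again without overlap. This was a 2.22-fold rise (log2 fold change 1.15 ± 0.11, 95% interval 0.90 to 1.41, adjusted p = 5.20e-05, edgeR). The BMI1 values rested on 270 to 1068 counts per library, and no 50-base word of the exons of either gene occurred elsewhere in the genome, so the genes do not share reads at that length.

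*RING1A*, which encodes the other kind of RING-finger subunit, had 9.57 and 7.85 CPM in the WT libraries and 8.87 and 11.0 in *val1*, and the groups overlapped. Its log2 fold change was 0.20 (95% interval -0.18 to 0.58, adjusted p = 0.363, edgeR). *RING1B* had 23.1 and 20.7 CPM in the WT libraries and 21.3 and 17.8 in *val1*, which also overlapped, with a log2 fold change of -0.17 (95% interval -0.43 to 0.10, adjusted p = 0.281, edgeR). The intervals of both RING1 genes thus lay below those of both BMI1 genes. *RING1B* overlaps the oppositely oriented AT1G03780 over 163 bases and *RING1A* overlaps AT5G44270 over 8 bases. Whether the strand was used in counting is not given in the sources used here, so reads of such overlaps cannot be assigned. AT1G03780 had 787 to 975 counts per library and a log2 fold change of -0.03 in *val1*, whereas AT5G44270 had at most 9 counts.

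The deacetylase side of the set did not pass the test in *val1*. *HDA19*, the most abundant of the 10 in WT, had 142.5 and 146.2 CPM in the WT libraries and 132.6 and 135.2 in *val1* (log2 fold change -0.11, 95% interval -0.27 to 0.05, adjusted p = 0.238, edgeR). *HDA6* had 27.4 and 32.5 CPM in the WT libraries and 33.1 and 31.9 in *val1* (log2 fold change 0.12, 95% interval -0.11 to 0.34, adjusted p = 0.362). *SAP18* had 40.6 and 38.9 CPM in the WT libraries and 44.9 and 41.9 in *val1* (log2 fold change 0.12, 95% interval -0.05 to 0.30, adjusted p = 0.216). The upper bounds of all 3 intervals lay below the lower bound for *BMI1B* (0.90). *HDA6* overlaps AT5G63100 on the same strand over 28 bases, and that gene, with 83 to 171 counts per library, was higher in *val1* (log2 fold change 1.00). *SAP18* and *HDA6* did pass the test when libraries were scaled by their total alone. Their log2 fold changes were then 0.34 (adjusted p = 0.00609) and 0.33 (adjusted p = 0.0147, edgeR). That scaling also raised the median log2 fold change of all genes in *val1* from 0.04 to 0.25.

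The other VAL genes did not pass the test in *val1* either. *VAL2* had a log2 fold change of -0.10 (95% interval -0.29 to 0.08, adjusted p = 0.334, edgeR). *VAL3*, the least expressed member of the family here, had 5.01 and 4.43 CPM in the WT libraries and 5.39 and 4.77 in *val1*, on 126 to 147 counts per library (log2 fold change 0.11, 95% interval -0.29 to 0.50, adjusted p = 0.649). *VAL3* overlaps AT4G21560 on the other strand over 14 bases, and that gene fell in *val1* (log2 fold change -1.30).

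**Figure D2:**
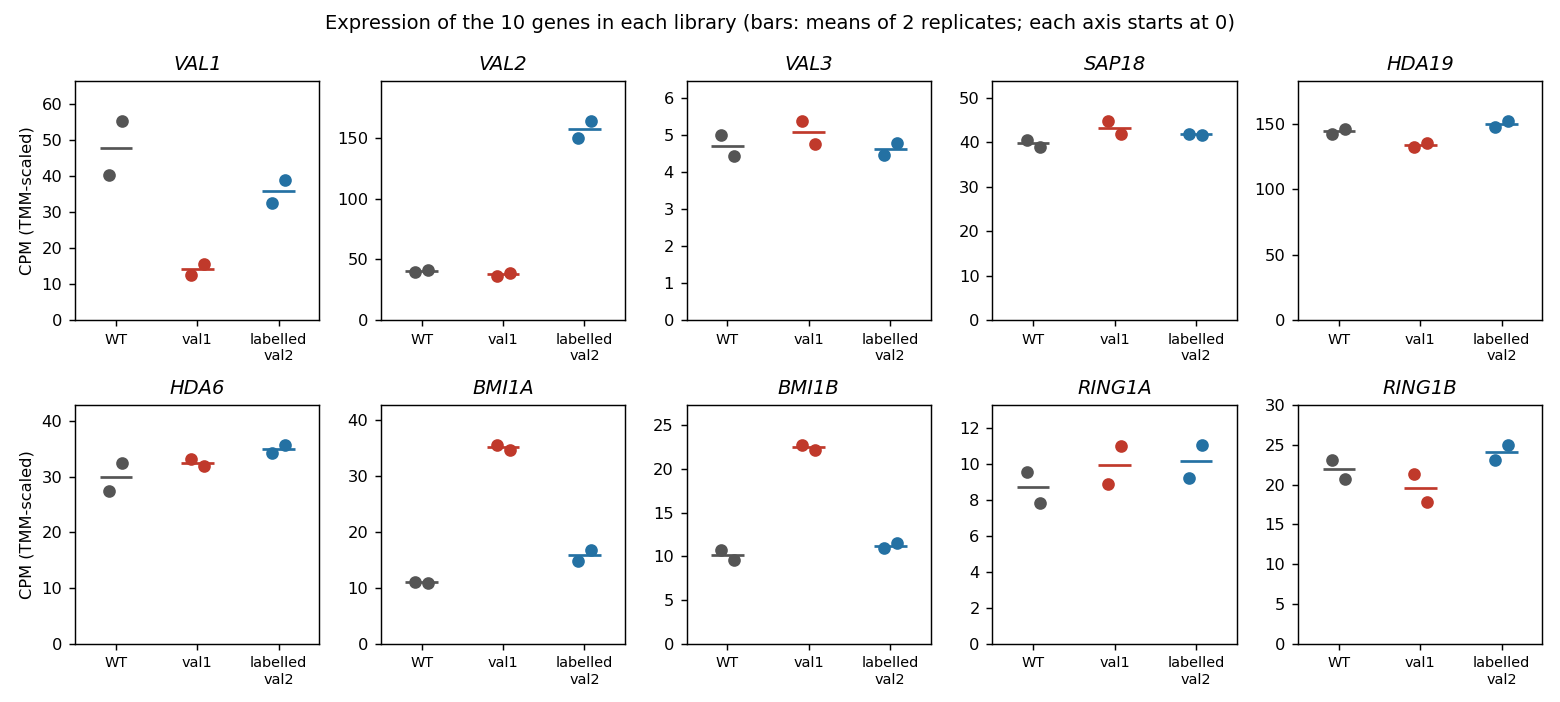
CPM of each of the 10 genes in each of the 6 libraries (points) with the mean of the 2 replicates of a group (bars), each panel on its own axis from 0. *BMI1A* and *BMI1B* stand at 34.7 to 35.5 and 22.2 to 22.8 in *val1*, above all other libraries, and *VAL2* stands at 149.8 and 163.9 in the libraries labelled *val2*.

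In the libraries labelled *val2*, 2 of the 10 genes passed the test against WT, both higher, against 18.7% of all genes tested in either direction and 8.69% in this direction. They were *VAL2* itself, at 3.88-fold, and *BMI1A*, at 1.44-fold. At least 2-fold changes were seen in 1 of the 10 genes and in 3.18% of all genes. The libraries did not overlap with WT for 7 of the 10 genes, against 61.9% of all genes. *BMI1A* had 14.8 and 16.7 CPM in these libraries, above both WT libraries and below both *val1* libraries (log2 fold change 0.52 ± 0.10, 95% interval 0.29 to 0.76, adjusted p = 0.0102, edgeR). This call was lost without WT replicate 2 (0.51, adjusted p = 0.0594) and without *val2* replicate 2 (0.43, adjusted p = 0.0678). *BMI1B* had 10.9 and 11.5 CPM, just above the WT libraries, and did not pass (log2 fold change 0.15, 95% interval -0.11 to 0.41, adjusted p = 0.406, edgeR).

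*VAL1* had a log2 fold change of -0.42 in the libraries labelled *val2* (95% interval -0.79 to -0.05), and the adjusted p of 0.107 missed the threshold. The WT replicates differed most for this gene among the 10, at 40.3 and 55.4 CPM, and without WT replicate 1 the value was -0.63 with an adjusted p of 0.0350. The 6 remaining genes had log2 fold changes between -0.03 and 0.22 against WT, with adjusted p from 0.149 to 0.940 (edgeR) and intervals between -0.42 and 0.60. Among them, *HDA19* had 148.1 and 152.4 CPM and *SAP18* had 41.8 in both libraries. *RING1B* had 23.1 and 25.0 CPM, *RING1A* had 9.23 and 11.1, *HDA6* had 34.2 and 35.8, and *VAL3* had 4.46 and 4.80.

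**Figure D3:**
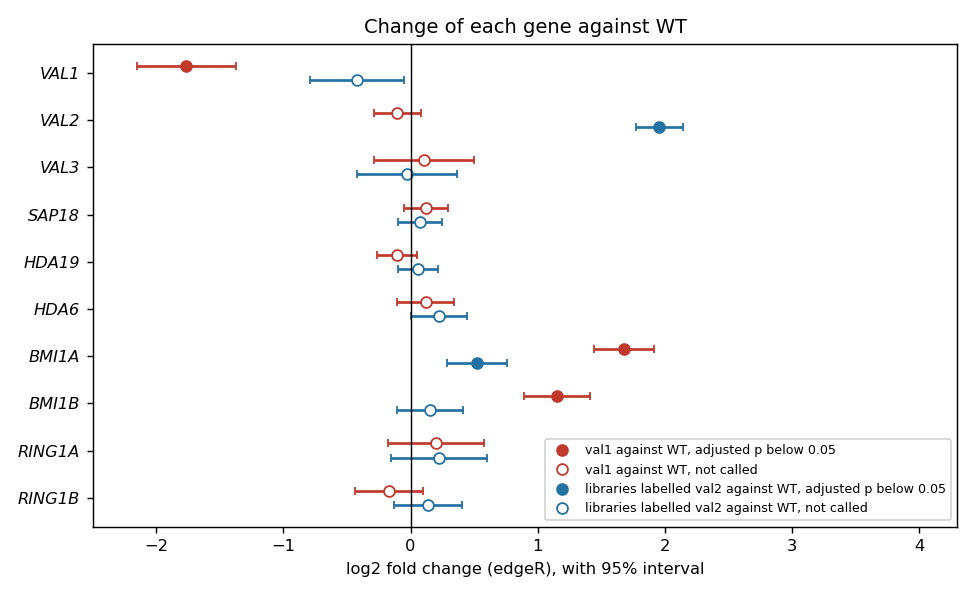
Log2 fold change against WT of each gene in *val1* (red) and in the libraries labelled *val2* (blue), from edgeR with 95% intervals, filled where the adjusted p over all genes was below 0.05. In *val1* the filled points are *VAL1* at -1.76, *BMI1A* at 1.68 and *BMI1B* at 1.15, and in the libraries labelled *val2* they are *VAL2* at 1.96 and *BMI1A* at 0.52.

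The changes against WT share the WT libraries, so the mutants were also compared directly. In *val1* against the libraries labelled *val2*, 4 of the 10 genes passed the test, against 35.7% of all genes, 2 of them higher in *val1* (17.7% of all genes) and 2 lower (18.0%). *BMI1A* was 2.23-fold higher in *val1* (log2 fold change 1.15, 95% interval 0.93 to 1.38, adjusted p = 3.95e-05, edgeR) and *BMI1B* 2.00-fold higher (1.00, 95% interval 0.75 to 1.25, adjusted p = 0.000164). *VAL1* had a log2 fold change of -1.34 (adjusted p = 0.000375) and *VAL2* of -2.06 (adjusted p = 1.73e-06). The difference between the mutants in *BMI1A* and *BMI1B* therefore passed a test of its own. *RING1B* had a log2 fold change of -0.30 (95% interval -0.57 to -0.04, adjusted p = 0.0749) and *HDA19* of -0.17 (adjusted p = 0.0970), while the other 4 genes had values between -0.11 and 0.13 (edgeR).

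Markers of other tissues were read in the same libraries. The 4 leaf markers (*RBCS1A*, *RBCS3B*, *LHCB1.1* and *LHCB2.1*, genes of Rubisco and of the light-harvesting antenna) were all called higher in *val1* than in WT (median log2 fold change 0.24). Of all genes 23.6% were called higher there. Their summed levels were 7011 and 6572 CPM in WT, 8162 and 7889 in *val1* and 5791 and 5563 in the libraries labelled *val2*. In the latter all 4 had negative log2 fold changes and 3 of the 4 passed the test, against 18.7% of all genes called in either direction. The 4 calls in *val1* fell to 1 without WT replicate 2 and to 2 without either *val1* library. The 3 calls in the libraries labelled *val2* fell to 1 without any 1 of the WT or *val2* libraries, to 1 with log2(TPM + 1) and to 0 with log2(TPM + 0.1). The part of this difference in the *BMI1A* and *BMI1B* values was not tested. The shoot meristem genes *STM*, *CLV1* and *KNAT1* summed with *CLV3* to between 144 and 175 CPM in all 6 libraries, *CLV1* was higher in *val1* (log2 fold change 0.33, a call lost without WT replicate 2), and *WUS* is not in the table used here. Of the 4 flower and 4 root markers, 2 each are in the table used here (*AP1* and *PI*, *PRP3* and *NRT2.1*). They stayed at or below 0.81 and 0.97 CPM in sum. Total counts ranged from 22635808 to 33474422 per library.

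Levels can be compared between genes only per length, and CPM per kilobase of exon was used for all 10. In WT the order ran from *HDA19* (71.1 and 72.9) over *SAP18* (42.3 and 40.5), *HDA6* (14.7 and 17.4), *VAL1* (11.8 and 16.3), *VAL2* (10.6 and 10.9), *RING1B* (9.11 and 8.15), *BMI1A* (4.64 and 4.55), *RING1A* (4.47 and 3.67) and *BMI1B* (4.28 and 3.81) to *VAL3* (1.90 and 1.68). *HDA6* and *VAL1* were not separated beyond their spread, and neither were *RING1A* and *BMI1B*, while the other neighbours in the order did not overlap. The deacetylase gene *HDA19* was thus 17.9 times as abundant per length as *BMI1B* on average. In *val1*, *BMI1A* (14.9 and 14.5 CPM per kilobase) took the fourth place, behind *HDA6* (17.8 and 17.1), and *VAL1* (3.67 and 4.61) fell to the ninth, where it overlapped with *RING1A* (4.14 and 5.15). In the libraries labelled *val2*, *VAL2* (39.8 and 43.6) stood beside *SAP18* (43.6 and 43.5) and overlapped with it. The deposited TPM values, which hold 6 of the 10 genes, gave 17.7 in both WT libraries for *VAL2* against 20.1 and 17.5 for *RING1B*, so these neighbours in the order overlapped on that scale. By TPM in WT, *VAL1* (18.6 and 24.8) also overlapped with *RING1B*. The same held for *BMI1A* (8.23 and 7.86) and *BMI1B* (8.30 and 6.93), with *BMI1B* the higher in WT replicate 1.

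Summed per length, the 4 PRC1 RING-finger genes had 22.5 and 20.2 CPM per kilobase in WT, 36.5 and 35.5 in *val1*, and 24.0 and 26.7 in the libraries labelled *val2*. The higher sum in *val1* came from the BMI1 genes, which had 8.93 and 8.36 in WT and 24.0 and 23.4 in *val1*, whereas the RING1 genes had 13.6 and 11.8 in WT and 12.5 and 12.2 in *val1*. *RING1B* held the largest share of the 4 in WT (40.5% and 40.4%) and *BMI1A* in *val1* (40.8% and 40.9%). Within the BMI1 genes the share of *BMI1A* was 52.0% and 54.4% in WT, 62.1% in both *val1* libraries, and 58.7% and 60.4% in the libraries labelled *val2*, so the balance leaned to *BMI1A* in both mutant groups without overlap with WT.

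The VAL genes together had 24.3 and 28.9 CPM per kilobase in WT, 15.3 and 16.8 in *val1*, and 51.1 and 56.9 in the libraries labelled *val2*. *VAL1* held 48.6% and 56.5% of this sum in WT and *VAL2* 43.6% and 37.7%. In *val1*, *VAL2* held 62.7% and 61.8% of the smaller sum, and in the libraries labelled *val2* it held 77.9% and 76.6% of the larger one. *VAL3* held at most 13.4% in any library. No test was run on these shares.

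**Figure D4:**
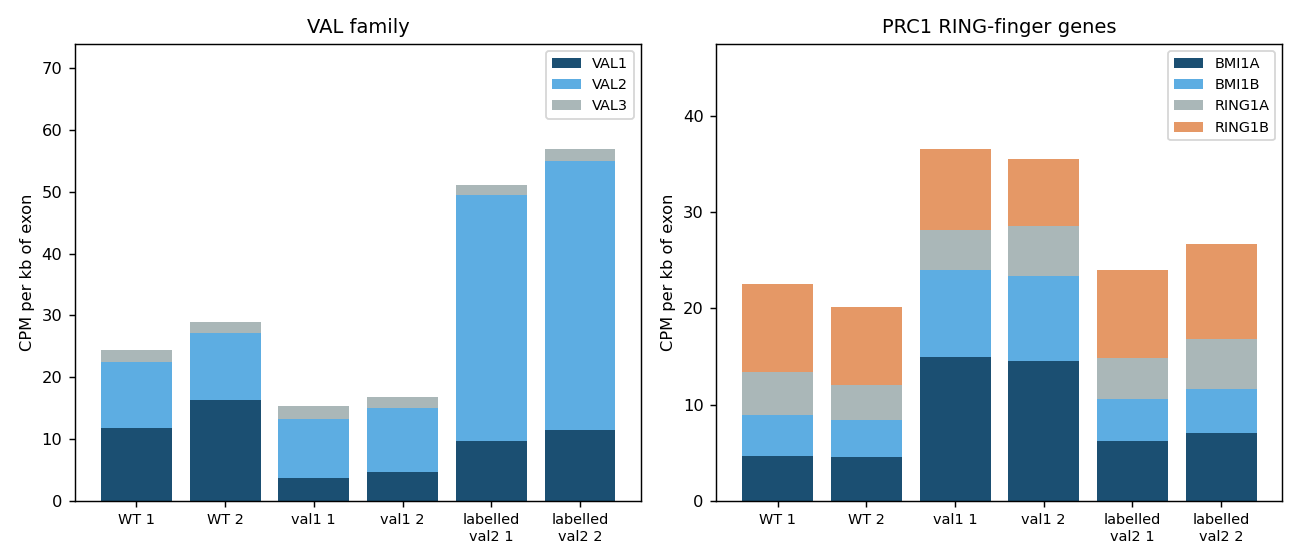
Levels in CPM per kilobase of exon, stacked by gene, for the VAL genes (left) and the PRC1 RING-finger genes (right) in each of the 6 libraries. The PRC1 sum is 36.5 and 35.5 in *val1* against 22.5 and 20.2 in WT, and the VAL sum is 51.1 and 56.9 in the libraries labelled *val2*.

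*VAL1* and *BMI1A* lie on chromosome 2, 40633 bases apart, and moved in opposite directions in *val1*. The genes between them were therefore read in the same fit, a window chosen after its values were seen. All 10 counted genes of the interval were tested, and in *val1* the calls were 0 higher and 2 lower (edgeR, and the same counts with DESeq2), against 23.6% and 22.1% of all genes, with a median log2 fold change of -0.04 (range -1.53 to 0.21). At an unadjusted p below 0.05, 1 was higher and 3 were lower, and with libraries scaled by their total alone 3 were called higher. The genes that fell were *C4H* (-1.53), which encodes a cytochrome P450 of phenylpropanoid synthesis, and *NET4B* (-1.21), which encodes an actin-binding protein. The last 2 genes before *BMI1A* were *PSBW*, with a log2 fold change of 0.18, and *LGT5*, with 0.13, and neither passed the test, against 1.68 for *BMI1A*. With libraries scaled by their total alone, both passed (0.39 and 0.35), where the median of all genes was 0.25 in place of 0.04. In the libraries labelled *val2*, 0 of the 10 were higher and 2 lower, against 8.69% of all genes higher and 18.7% called in all. The lower genes there were *RPT2* (-1.35, adjusted p = 9.56e-05, edgeR), at -0.03 in *val1*, and *C4H* (-0.81, adjusted p = 0.00873). The call of *C4H* there was lost with log2(TPM + 0.1) and without *val2* replicate 1.

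**Figure D5:**
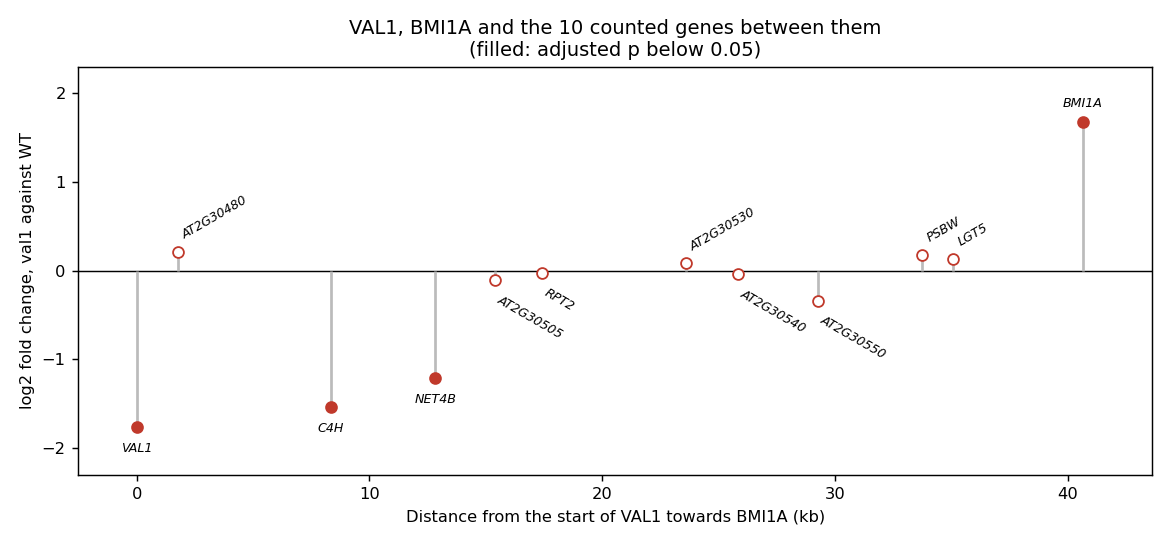
Log2 fold change in *val1* against WT of *VAL1*, *BMI1A* and the 10 counted genes between them, by distance from the start of *VAL1* towards *BMI1A* in kilobases, filled where the adjusted p was below 0.05. *VAL1* (-1.76), *C4H* (-1.53) and *NET4B* (-1.21) are lower, and *BMI1A* (1.68) is the one gene that is higher with an adjusted p below 0.05.

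The 3 counted genes on each side of *VAL2* were examined for the comparison in which *VAL2* itself was higher. None of the 6 passed the test against WT with edgeR or DESeq2, where 18.7% of all genes did with edgeR, and 2 of the 6 had an unadjusted p below 0.05 (log2 fold changes from -0.06 to 0.31). The nearest, AT4G32000 and AT4G32020, had log2 fold changes of 0.29 and 0.05. The others were *ASP5* (-0.06), AT4G32030 (-0.04), AT4G31985 (0.31) and *KNAT5* (-0.06). Beside *VAL1*, the nearest counted genes in *val1* were AT2G30460, which rose (0.42, adjusted p = 0.0175, edgeR), and AT2G30480, which did not pass (0.21). The call of AT2G30460 was lost with DESeq2 and without any 1 of the WT and *val1* libraries. Further out, *TPP* fell (-1.09) and *TCL1* had a value of 1.31 with an adjusted p of 0.0793, on at most 38 counts.

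Lists of further genes held PRC1 and associated genes, partners of SAP18 and HDA6, SIN3 complex genes, other histone deacetylases and TOPLESS corepressors. These lists had 44 genes in all, of which 41 were counted and 40 tested. In *val1*, 8 were higher and 8 lower, against 23.6% and 22.1% of all genes, with a median log2 fold change of 0.05 against 0.04 for all genes. In the libraries labelled *val2*, 7 were higher and 0 lower, against 8.69% of all genes higher and 18.7% called in all, with a median of 0.02 against 0.00016 for all genes (edgeR). Without WT replicate 1 or without *val1* replicate 1, the counts in *val1* were 6 higher and 4 lower. DESeq2 gave 7 higher and 10 lower in *val1*, and 7 higher and 1 lower in the libraries labelled *val2*. With libraries scaled by their total alone, which raises the median of all genes in *val1*, 20 were higher and 3 lower there. Of the 7 tested genes listed as PRC1 genes or as associated with PRC1, 2 were lower in *val1*. *EMF1* encodes a Polycomb-associated repressor (-0.30, adjusted p = 0.0238, edgeR). *UBP13*, listed as an associated gene, encodes a ubiquitin protease (-0.29, adjusted p = 0.0135, edgeR). The largest value of that list was that of *LHP1*, which encodes a chromodomain reader of methylated histone H3, at 0.08 without passing. The calls of *EMF1* and *UBP13* were lost without WT replicate 1 and without *val1* replicate 1. They were also lost with library size alone or TPM, which raise the median of all genes in *val1*. *EMF1* ranged from -0.39 to -0.09 over all alternatives. In the libraries labelled *val2*, 0 of the 7 passed with edgeR or DESeq2, and 1 had an unadjusted p below 0.05. *BMI1C*, the third BMI1 gene, is not in the table used here. None of the 7 was called higher in *val1* with edgeR, also at an unadjusted p below 0.05, or with DESeq2. *LHP1* was called higher with libraries scaled by their total alone (0.30, where the median of all genes was 0.25).

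The largest group of calls among the deacetylase genes was in the plant-specific HD2 class of nucleolar histone deacetylases. All 4 HD2 genes were higher than WT in *val1* and in the *val2*-labelled libraries, and also under each of the 15 alternatives, against 23.6% of all genes higher in the first comparison and 8.69% in the second, and both comparisons share the WT libraries. *HD2D* had 22.6 and 20.1 CPM in the WT libraries, 51.9 and 44.0 in *val1*, and 38.3 and 35.3 in the libraries labelled *val2*, without overlap of either mutant group with WT. Its log2 fold changes were 1.17 (adjusted p = 3.65e-05) and 0.79 (adjusted p = 0.00226, edgeR). *HD2A*, *HD2B* and *HD2C* had log2 fold changes of 0.71, 0.51 and 0.60 in *val1* and of 0.85, 0.55 and 0.53 in the libraries labelled *val2*. Outside the HD2 class, *HDA18* was lower in *val1* (-2.61, adjusted p = 5.5e-05, edgeR). It had 4.89 and 4.82 CPM in WT, 0.69 and 0.88 in *val1*, and 4.00 and 5.34 in the libraries labelled *val2*. In its exons 1.17% of the 50-base words occur elsewhere in the genome. The remaining 6 tested deacetylase genes of the list passed in neither comparison with WT.

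Among the 10 genes of the SIN3 complex, a corepressor scaffold with which HDA19 and SAP18 associate, 2 were higher and 3 lower in *val1* and 1 was higher in the libraries labelled *val2*, with no change of 2-fold. Of all genes 23.6% were higher and 22.1% lower in *val1*, and 8.69% were higher in the libraries labelled *val2*. The 3 lower calls in *val1* fell to 1 without WT replicate 1 or *val1* replicate 1, where those of *SNL2* and *HDC1* were lost, and the 2 higher calls to 1 without WT replicate 2 or *val1* replicate 1. The extremes in *val1* were *SNL4*, which encodes a SIN3-like scaffold (-0.50), and *MSI1*, which encodes a histone-binding WD40 protein (0.46, and 0.45 in the libraries labelled *val2*). Of the partners of SAP18 in the ASAP complex, *SR45*, which encodes a splicing factor, was higher in the libraries labelled *val2* (0.33, adjusted p = 0.0169, edgeR) and *ACINUS* passed in neither comparison. The call of *SR45* was lost without either WT library and without *val2* replicate 2. Of the 5 genes of HDA6 partners, 2 were higher in *val1*, the lysine demethylase gene *LDL1* (0.39) and *FVE* (0.27), which encodes a histone-binding protein of the autonomous flowering pathway, and *FVE* was also higher in the libraries labelled *val2* (0.42). In *val1* the call of *LDL1* was lost with DESeq2, without WT replicate 1 and without either *val1* library, and that of *FVE* without WT replicate 1 and without *val1* replicate 2. Of the 5 TOPLESS corepressor genes, *TPR3* (-1.22, adjusted p = 0.000152, edgeR) and *TPL* (-0.39) were lower in *val1*. The call of *TPL* was lost with library size alone and with TPM, which raise the median of all genes in *val1*. None of the 5 passed in the libraries labelled *val2* (1 had an unadjusted p below 0.05, and DESeq2 called 1 lower). *TPR3* had 93.0 and 102 CPM in the WT libraries, 35.7 and 47.9 in *val1*, and 83.0 and 100.8 in the libraries labelled *val2*.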

How the data were processed

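The 10 genes and the gene lists were chosen with earlier results of these data known. The deposited estimated counts were whole numbers that the authors obtained with StringTie for Araport11 genes, without normalization, after cutadapt trimming and STAR mapping to TAIR10. The deposited TPM values (16383 genes) come from the same StringTie estimates by the authors, divided by gene length, and served as an alternative. Tool versions and the strand setting are not given in the sources used here. Of 24369 entries, 77 without a gene identifier (0.00191% to 0.00266% of counts) were left out. Counts were tested in R 4.3.3 with edgeR 4.0.16 (filterByExpr, TMM factors 0.925 to 1.09, 1 quasi-likelihood fit with 3 genotype means over all 6 libraries, 3 residual degrees of freedom, Benjamini-Hochberg over the 21140 genes, calls at an adjusted p below 0.05). All gene p-values come from this fit unless stated. The script was tested on simulated data. Replicates differed by more than counting error (mean chi-square per gene 9.27 to 11.8).

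Levels of all 10 genes use CPM per kilobase of the union of annotated exons, in place of the planned TPM, since the TPM table holds 6 of them. Positions and sequences were read from TAIR10.1 (RefSeq), in which 99.6% of the genes were found. Primer sequences are those the study lists. The text names the 10 genes, list genes that changed at least 2-fold or were the extremes of a list, the 3 counted neighbours on each side of *VAL1* and *VAL2*, and the 3 genes (mean of at least 5 CPM) with the smallest root mean square difference from *VAL1* or *VAL2* in centred log2 CPM. List genes that were called below 2-fold were also named after their values were seen. Alternatives were DESeq2 1.42.0, DESeq2 scaling within edgeR, scaling by total counts alone (library size alone), the unfiltered table, a stricter filter (mean count of 50 or more), fits of only the compared pair of groups, a replicate block, limma 3.58.1 on log2(TPM + 1) and log2(TPM + 0.1) of genes with a mean TPM of at least 1, and leaving out each library. Plots were drawn with Python 3.11.15 and matplotlib 3.10.9.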

Additional observations from a re-analysis of the deposited data

How the results depend on the processing

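Of 426 log2 fold changes of the 10 genes recomputed under 15 alternatives, 401 kept their direction and their side of the threshold. *BMI1A* and *BMI1B* in *val1* passed under all of them (log2 fold changes of 1.65 to 1.89 and 1.07 to 1.37). With library size alone, 5 of the 10 genes were called in *val1* against WT in place of 3. That scaling raised the median of all genes in *val1* from 0.04 to 0.25. The median of all genes in *val1* was also raised on the TPM scales, to 0.285 with log2(TPM + 1) and 0.290 with log2(TPM + 0.1). In *val1* against WT, values that did not pass changed sign for *VAL2* (0.11 with library size alone, 0.059 with log2(TPM + 1) and 0.062 with log2(TPM + 0.1)), *HDA19* (0.11, 0.070 and 0.070), *RING1B* (0.047, 0.0037 and 0.0038) and *HDA6* (-0.00014 without WT replicate 1, up to 0.25 without other libraries). In the libraries labelled *val2* against WT, *VAL3* changed sign (0.052 with library size alone, 0.033 without *val2* replicate 1, and -0.11 to 0.064 over all libraries left out), and the number of genes called when 1 library was left out ranged from 1 to 3. Between the mutants, sign changes were seen for *SAP18* (-0.0057 to 0.097 when 1 library was left out), *HDA6* (0.032 with library size alone) and *RING1A* (0.11 with library size alone, and -0.20 to 0.11 when 1 library was left out), and *RING1B* passed without *val1* replicate 1 (-0.44, adjusted p = 0.0441, edgeR). Of the 6 neighbours of *VAL2*, 1 was called in the libraries labelled *val2* with library size alone, with only the 2 groups compared, with log2(TPM + 0.1) and when either *val1* library was left out, alternatives added after seeing the data. *HDA19* was 15.2 times as abundant as *BMI1B* in WT by TPM and 17.9 times by CPM per kilobase. Of 613 values for the named genes of the lists and intervals that were called against WT, 533 kept their call, 80 lost it and 0 changed sign. The cause of these changes was not tested.

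The labels do not say whether libraries with the same replicate number share a batch. The deviations of same-numbered libraries had correlations of 0.0309 to 0.0406, which with 2 libraries a group cannot decide it. With the replicate number as a block, *VAL1* in the libraries labelled *val2* passed (-0.41, adjusted p = 0.00959, edgeR), the block left the number of genes called at 3 in *val1*, and it called 3 in the libraries labelled *val2*. Each test rested on 2 libraries a group and 3 residual degrees of freedom, which limits how small a change could be detected.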

Other observations

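Of all 15572 tested genes with a mean of at least 5 CPM, those whose log2 CPM over the 6 libraries was most like that of *VAL1*, after each gene was centred on its mean, were *SESA1* (root mean square difference 0.058), AT5G53750 (0.071) and *PLC1* (0.074). *SESA1*, which encodes a seed storage albumin, had 26.7 and 33.5 CPM in the WT libraries, 8.02 and 10.3 in *val1*, and 22.4 and 26.4 in the libraries labelled *val2*. *PLC1*, which encodes a phospholipase C, had 106 and 138 CPM in the WT libraries, 32.5 and 38.1 in *val1*, and 86.7 and 89.3 in the libraries labelled *val2*. In these genes, as in *VAL1*, WT replicate 2 was the highest library.

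For *VAL2* the most alike were *WRKY38* (root mean square difference 0.105), *SQS2* (0.265) and *WRKY51* (0.414). *WRKY38*, which encodes a transcription factor of the salicylic acid response, had 10.3 and 12.7 CPM in the WT libraries, 11.3 in both *val1* libraries, and 42.0 and 43.5 in the libraries labelled *val2*. *SQS2*, named for squalene synthase, had 14.8 and 13.1 CPM in the WT libraries and 41.2 and 38.1 in the libraries labelled *val2*. These patterns rest on 6 libraries in 3 groups and were not tested.

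*HDA7*, a histone deacetylase gene that did not pass the filter on low counts, had 9 counts in each *val1* library and 0 in the other 4 libraries. Of the B3 relatives of the VAL genes that switch on seed maturation, *ABI3* and *LEC2* were near the floor. They had at most 4 and 8 counts in any library, and *FUS3* is not in the table used here.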
